A study of Mus musculus with 8 samples.

Results

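Peroxisomes are single-membrane organelles that shorten very long-chain and branched fatty acids, make ether lipids and bile acid precursors, and break down the hydrogen peroxide that their own oxidases give off. Here 48 genes for peroxisome assembly and peroxisomal metabolism were followed in liver. They were taken by gene symbol and known role out of 22180 genes with at least 1 array cluster that names them alone. These members, and the further lists below, were chosen with earlier results of these data known. Shares of a list set beside those of all clusters are therefore descriptions only. A cluster is the array's unit for a transcript, and where a gene had several, the one with the highest mean over all 8 arrays was kept. All 48 were measured. They comprise 13 peroxins, 6 membrane proteins, 13 proteins of beta-oxidation and acyl transfer to carnitine, and 16 other matrix enzymes. Counted in the beta-oxidation group is Pecr, a reductase linked to chain elongation.

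The livers came from 5 male Abhd15 KO mice and 3 male WT mice, all on the C57BL/6J background and fed normal chow. The Abhd15 protein has a hydrolase fold and is known best from fat cells. All mice were fasted overnight and refed chow for 1 hour before the liver was taken, at 14 weeks of age by the design text, while the sample labels speak of a diet lasting up to 14 weeks. The sources used here do not say how the knockout was made or in which cells. Whether every array is a separate animal is implied but not listed, so the p-values reflect only how much these samples vary. Each liver was read on 1 Mouse Gene 2.0 ST array, which gives a log2 expression value per cluster.

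Peroxisome assembly has a fixed order of parts. Pex3, Pex16 and Pex19 place proteins in the membrane, Pex5 and Pex7 are the receptors that bring enzymes from the cytosol, Pex13 and Pex14 dock them, Pex2 and Pex10 tag the receptors with ubiquitin, and Pex6, anchored by Pex26, pulls them back out. In rodent liver the organelle is known for its response to PPARA, a fatty-acid-sensing nuclear receptor that works with RXR and is active in fasting. Ehhadh, Acaa1b and Pex11a are well-known mouse targets of it.

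Abhd15 itself read 5.14, 5.04, 5.21, 5.17 and 5.04 in KO arrays 1 to 5, against 5.65, 5.81 and 5.46 in WT arrays 1 to 3. The groups did not overlap, with a log2 difference of -0.52 (SE 0.129), which did not pass the adjusted threshold (adjusted p = 0.795 with limma). Abhd15 had 2 clusters that name it alone, of which the one with the higher mean is given and the other is not reported here. No label says whether the probes of Abhd15 cover what was deleted. Hepatocyte markers averaged 10.6 to 10.8 per array in KO livers and 10.7 to 10.8 in WT livers. All 10 were measured, with 6 lower and 4 higher. The summed level of macrophage markers spanned a wider range in KO livers, with list means of 5.75 to 6.89 against 5.97 to 6.47 in WT livers (10 of 10 measured). Its part in the results below was not tested. Kidney tubule, exocrine pancreas, lymphocyte and neutrophil markers had list means of at most 3.14 on any array, adipocyte markers 3.43 and cholangiocyte markers 3.78. Sinusoidal endothelial markers averaged 7.32 to 7.51 in KO and 7.36 to 7.40 in WT livers, with 5 lower and 3 higher. Stellate cell markers averaged 6.09 to 6.53 and 6.32 to 6.43, with 4 lower and 4 higher. Without overlap between the groups, the endothelial Lyve1 (log2 difference 0.65) and the hepatocyte marker Tat (0.21) were higher and the stellate Lrat lower (-0.34). On principal components of all clusters with 1 gene symbol, the first (22.1% of the variance) set KO arrays 1 and 2 apart. The second (15.8%) set KO array 4 apart and the third (13.8%) KO array 5. Some results are therefore also given without KO arrays 1 and 2, and for some genes without another single array. In tissue RNA, fewer cells of a type and less RNA per cell cannot be told apart.

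Promoter windows are shown for the thiolase pair Acaa1b and Acaa1a and for Ehhadh, on whose values the results turn, and for Cat and Acox2, the only members whose window held a near match to the element that PPARA and RXR bind. The element searched was the direct repeat AGGTCANAGGTCA on both strands with at most 2 mismatches, and separately its half-site AGGTCA. Each window runs from 250 bases before to 50 bases after the gene's start, reads 5′ to 3′ along the gene, and comes from RefSeq on GRCm38.p6, where 38 of the 48 members had an exact entry. The Acaa1b window lies at chr9:119157044-119157343 on the minus strand, that of Acaa1a at chr9:119341044-119341343 on the plus strand, that of Ehhadh at chr16:21787785-21788084, that of Cat at chr2:103485104-103485403 and that of Acox2, the one of its 2 windows with a match, at chr14:8258790-8259089. Ehhadh, Cat and Acox2 lie on the minus strand. Capitals mark a match to the direct repeat or a half-site, and a window without capitals held neither.
Acaa1b: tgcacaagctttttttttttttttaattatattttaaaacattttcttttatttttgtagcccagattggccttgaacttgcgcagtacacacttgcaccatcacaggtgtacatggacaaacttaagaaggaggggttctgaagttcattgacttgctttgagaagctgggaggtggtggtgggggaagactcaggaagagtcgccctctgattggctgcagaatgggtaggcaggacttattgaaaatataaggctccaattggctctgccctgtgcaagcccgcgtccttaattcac
Acaa1a: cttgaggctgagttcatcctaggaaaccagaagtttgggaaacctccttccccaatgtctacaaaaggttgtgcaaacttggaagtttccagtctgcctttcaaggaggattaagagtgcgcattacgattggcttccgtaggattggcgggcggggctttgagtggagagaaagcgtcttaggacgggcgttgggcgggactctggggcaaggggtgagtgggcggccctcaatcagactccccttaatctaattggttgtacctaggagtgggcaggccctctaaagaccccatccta
Ehhadh: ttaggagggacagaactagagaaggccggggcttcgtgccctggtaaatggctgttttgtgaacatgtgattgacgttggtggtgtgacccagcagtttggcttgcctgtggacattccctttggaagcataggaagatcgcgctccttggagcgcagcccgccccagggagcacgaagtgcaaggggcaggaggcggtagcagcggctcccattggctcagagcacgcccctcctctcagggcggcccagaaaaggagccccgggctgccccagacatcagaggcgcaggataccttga
Cat: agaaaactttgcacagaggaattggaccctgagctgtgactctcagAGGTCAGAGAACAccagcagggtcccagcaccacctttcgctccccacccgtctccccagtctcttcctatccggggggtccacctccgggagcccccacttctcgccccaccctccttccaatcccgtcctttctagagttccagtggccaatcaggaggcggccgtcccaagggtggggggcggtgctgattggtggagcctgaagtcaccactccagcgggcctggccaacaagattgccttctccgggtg
Acox2: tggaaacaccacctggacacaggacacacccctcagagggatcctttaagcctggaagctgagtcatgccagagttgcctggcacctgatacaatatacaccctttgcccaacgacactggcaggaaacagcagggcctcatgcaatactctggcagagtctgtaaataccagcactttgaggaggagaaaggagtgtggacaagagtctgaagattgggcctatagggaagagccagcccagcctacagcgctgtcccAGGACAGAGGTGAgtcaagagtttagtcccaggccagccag

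In Cat the match, AGGTCAGAGAACA, begins 204 bases before the gene's start and holds 1 exact half-site. In Acox2 the match, AGGACAGAGGTGA, begins 9 bases after the start. Among the members' 46 windows, 2 (4.35%) held the direct repeat with at most 2 mismatches, against 3.86% of all 32851 promoter windows, and 5 (10.9%) held the half-site, against 16.3%. The share of windows with these letters was thus close to or below that of all promoters. Acaa1b had 4 CpG dinucleotides in its window, Acaa1a 10 and Ehhadh 14, with a median of 14 over the members' windows and 7 over all windows. A match is a run of letters and not a shown binding site, and windows this short leave most regulatory sequence unread.

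Most peroxisome genes had a slightly lower mean in KO livers, and the beta-oxidation enzymes Acaa1b and Ehhadh had the lowest differences. The KO mean was below the WT mean for 39 of 48 members and above it for 9, with a median log2 difference of -0.11. As the members were chosen with earlier results of these data known, the shares of all clusters that follow give scale and no test. Over all 23521 clusters with 1 gene symbol the KO mean was lower in 50.4% (median log2 difference -0.0018), and over the 7699 with a mean of at least 5, where all members but Dao lie, in 59.9% (median -0.04). No member passed an adjusted p of 0.05 in limma, which called 0 of all clusters (0.0%). At an unadjusted p under 0.05, 4 members were lower and 0 higher, beside 3.32% of all clusters lower (3.91% of those with a mean of at least 5) and 2.75% higher. These 4 were Acaa1b, Ehhadh, Pecr and Abcd3. In 6 members every KO array lay below every WT array and in 0 above, beside 2.44% and 1.99% of all clusters. The 6 were Acaa1b, Pecr, Hsd17b4, Ech1, Nudt12 and Ephx2.

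**Figure D1:**
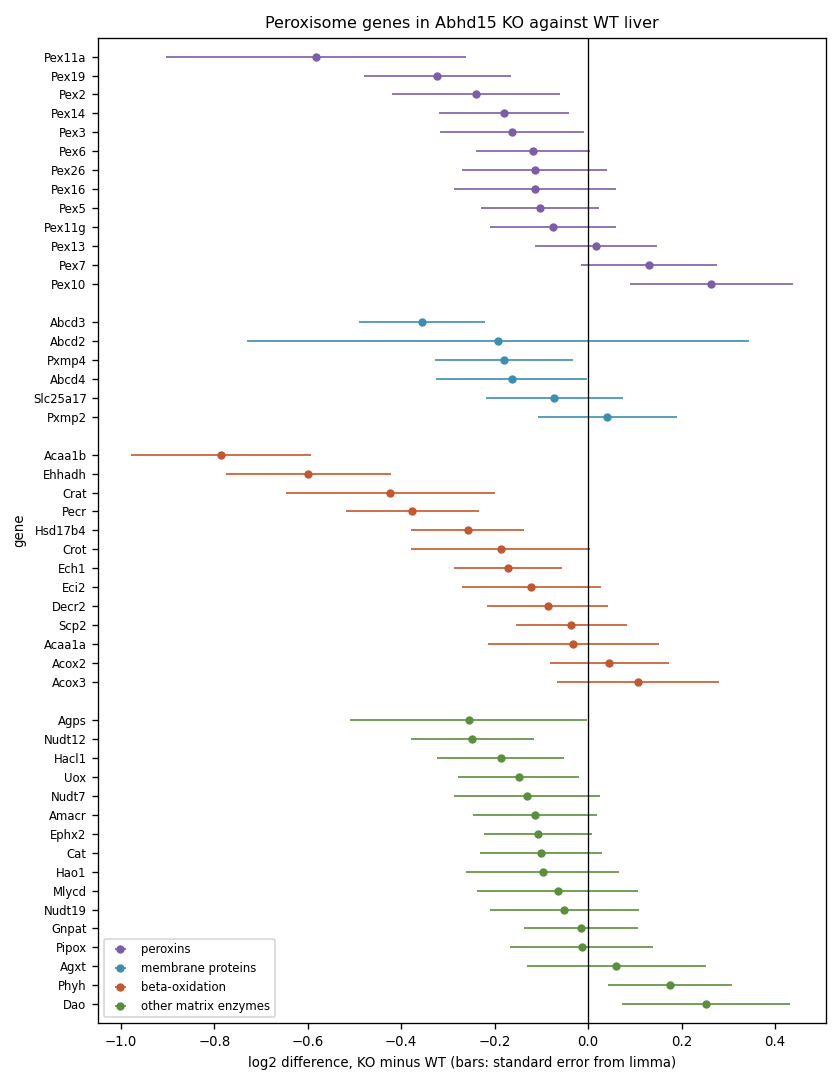
Log2 difference between KO and WT livers (x axis) for the 48 peroxisome genes (y axis), grouped by role, with limma's standard error as bars (5 KO and 3 WT arrays). Acaa1b lies farthest to the left at -0.79, and 9 genes lie right of 0.

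The counts shifted with single arrays and settings. Without KO array 5, 7 members were lower at an unadjusted p under 0.05, and between 3 and 5 without any other single array, while testing only clusters with a mean of at least 5 gave 7 and eBayes with trend and robust settings gave 8. Without KO arrays 1 and 2 the count was 4, and 37 of 48 members had the lower mean in KO.

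The beta-oxidation group held Acaa1b and Ehhadh, the members with the lowest differences. Of its 13 genes, 11 were lower and 2 higher, with a median log2 difference of -0.17. An unadjusted p under 0.05 was found for 3, namely Acaa1b, Ehhadh and Pecr, of which Pecr is linked to chain elongation. Acaa1b, a thiolase that performs the last, chain-cleaving step, read 9.40, 9.29, 9.37, 9.06 and 9.54 in KO arrays 1 to 5, against 10.55, 10.12 and 9.70 in WT arrays 1 to 3. All 5 KO arrays lay below all WT arrays, and the WT arrays were spread more widely than the KO arrays. Its level averaged 9.33 ± 0.176 in KO livers and 10.12 ± 0.425 in WT livers (SD, n = 5 and n = 3), a log2 difference of -0.79 (SE 0.192), or 1.72-fold lower, with an adjusted p of 0.795 in limma. The two-sided exact permutation test over the 56 splits of the arrays gave p = 0.0179, the smallest it can give. Without KO arrays 1 and 2 the log2 difference of Acaa1b was -0.79.

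Ehhadh, the L-bifunctional enzyme that hydrates and then oxidises the chain before its cleavage, read 11.11, 10.91, 11.05, 10.99 and 11.52 in KO arrays, against 12.02, 11.62 and 11.50 in WT arrays. Here 4 KO arrays lay below all WT arrays, and KO array 5 fell just inside the WT range. The log2 difference was -0.60 (SE 0.177), or 1.51-fold lower (95% interval -0.99 to -0.21, adjusted p = 0.795 with limma, exact permutation p = 0.0357). Pecr, a reductase of trans-enoyl-CoA linked to chain elongation, read 7.85, 7.96, 7.67, 7.52 and 7.76 in KO arrays, against 7.97, 8.28 and 8.14 in WT arrays. The groups did not overlap, with KO array 2 and WT array 1 nearly meeting. Its log2 difference was -0.38 (SE 0.143), or 1.3-fold lower (adjusted p = 0.795 with limma, exact permutation p = 0.0357).

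**Figure D2:**
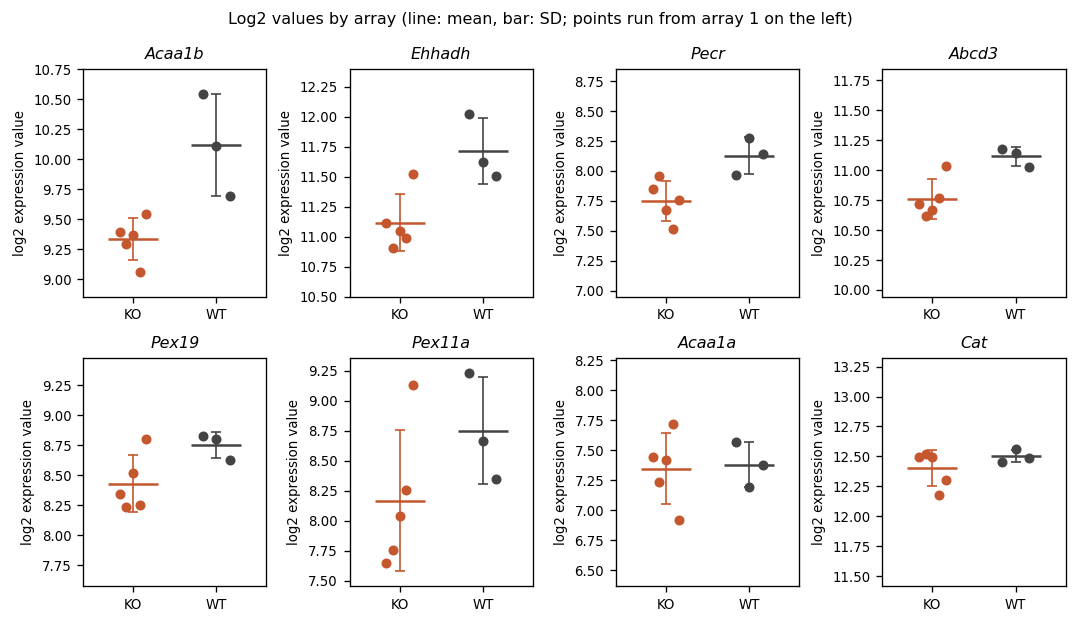
Log2 expression values (y axis) by array in KO and WT livers (x axis) for 8 peroxisome genes, with the mean as a line and the SD as a bar. Acaa1b and Pecr have no overlap between the groups, KO array 5 reaches the WT range in Ehhadh, Abcd3, Pex19 and Pex11a, and in Acaa1a and Cat some KO arrays lie within the WT range and others outside it.

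Acaa1a, the paralogous thiolase, read 7.45, 7.23, 7.42, 7.72 and 6.92 in KO arrays, against 7.57, 7.20 and 7.37 in WT arrays. The KO values enclosed the WT values, and the log2 difference was -0.03 (SE 0.183), with a 95% interval of -0.44 to 0.37. The pair is close in sequence, so its probes may not separate the transcripts fully. The within-array log2 difference of Acaa1b over Acaa1a averaged 1.99 ± 0.455 in KO livers and 2.74 ± 0.361 in WT livers (SD, n = 5 and n = 3). Signals of different probes are not comparable as levels, so only the shift between genotypes is read. That shift of -0.75 gave an exact permutation p of 0.0893 (0.134 after adjustment over 3 such pairs), so unequal change of the thiolases was not shown at this number of arrays. Without KO array 5 it was -0.91 (exact permutation p = 0.0286) and without WT array 3 it was -0.96 (exact permutation p = 0.0476), both before adjustment over the pairs. Each of these was the smallest p the test can give with those arrays. Without any other single array, p lay between 0.0857 and 0.238.

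Hsd17b4, the D-bifunctional enzyme that handles branched chains and bile acid precursors in parallel to Ehhadh, read 9.95, 9.84, 9.85, 10.06 and 10.05 in KO arrays, against 10.23, 10.16 and 10.23 in WT arrays. No KO array reached the WT range, although the log2 difference was smaller than that of Ehhadh at -0.26 (SE 0.121) with an exact permutation p of 0.0357 (adjusted p = 0.838 with limma). The within-array shift of Ehhadh over Hsd17b4 was -0.34, with an exact permutation p of 0.0893 (0.134 adjusted). Without KO array 5 it was -0.42 (exact permutation p = 0.0286 before adjustment), the smallest p the test can give with those arrays. Without WT array 1 it was -0.20 (exact permutation p = 0.286), and p lay between 0.0952 and 0.171 without any other single array. Ech1, an isomerase for chains with more than 1 double bond, also had every KO array (10.38 to 10.55) below every WT array (10.59 to 10.67), for a log2 difference of -0.17 (SE 0.115).

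The other members of this group overlapped between the genotypes. Crat, which moves short acyl groups to carnitine so that they can leave, read 8.97, 8.57, 8.96, 9.21 and 9.66 in KO arrays, against 9.76, 9.42 and 9.32 in WT arrays. KO array 5 lay inside the WT range and the other 4 KO arrays below it, and the log2 difference was -0.42 (SE 0.224) with all arrays and -0.22 without KO arrays 1 and 2. A second, dimmer cluster for Crat had a log2 difference of -0.39 (SE 0.195). Crot, which does the same for medium chains, had a log2 difference of -0.19 (SE 0.192), with KO arrays 4 and 5 at 10.84 and 10.88 and the other KO arrays at 11.43 to 11.56. Eci2 and Decr2, auxiliary enzymes for unsaturated chains, had log2 differences of -0.12 and -0.09. Scp2, a sterol carrier whose longer form is a thiolase, had one of -0.04. The oxidases Acox2, of bile acid precursors, and Acox3, of branched chains, had log2 differences of 0.05 (SE 0.128) and 0.11 (SE 0.173).

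The median of the peroxins depended on KO arrays 1 and 2. Of 13, 10 were lower and 3 higher (median log2 difference -0.11), and 0 had an unadjusted p under 0.05. Without KO arrays 1 and 2, 7 were lower and the median was -0.04. In the beta-oxidation group, Pecr included, 12 of 13 genes were then lower (median -0.16). This contrast between the groups is a description, with no test of its own.

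Pex19, the cytosolic chaperone of membrane proteins, had the smallest p among peroxins and read 8.34, 8.24, 8.52, 8.25 and 8.80 in KO arrays, against 8.83, 8.80 and 8.63 in WT arrays. The first 4 KO arrays lay below the WT range and KO array 5 within it, for a log2 difference of -0.32 (SE 0.157) and an adjusted p of 0.838 with limma (exact permutation p = 0.0893). Its partner Pex3, the membrane receptor, likewise had KO array 5 high and the other KO arrays below the WT range, with a log2 difference of -0.16 (SE 0.154), and Pex16, which acts with them, had one of -0.11 (SE 0.173).

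Pex11a, which promotes peroxisome division, read 7.65, 7.76, 8.04, 8.26 and 9.13 in KO arrays, against 9.23, 8.66 and 8.35 in WT arrays. It was the most variable peroxin in both groups. KO arrays 1 and 2 lay lowest, KO array 5 lay between the 2 highest WT arrays, and the log2 difference was -0.58 (SE 0.321), with a 95% interval of -1.29 to 0.13 (adjusted p = 0.849 with limma). It was -0.82 without KO array 5, -0.34 without WT array 1 and -0.27 without KO arrays 1 and 2. Pex11g, another member of the division family, had a log2 difference of -0.08 (SE 0.135), and the within-array shift of Pex11a over Pex11g, -0.51, had an exact permutation p of 0.286 (adjusted 0.286).

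The import machinery proper showed small differences of both signs. Pex10, a ubiquitin ligase, had the largest positive value of all members and read 5.01, 5.10, 5.14, 5.56 and 5.65 in KO arrays, against 5.09, 4.93 and 5.07 in WT arrays. KO arrays 4 and 5 stood above the rest, and the log2 difference was 0.26 (SE 0.174, adjusted p = 0.873 with limma), or 0.42 without KO arrays 1 and 2. Its partner ligase Pex2 had the opposite sign, -0.24 (SE 0.179), with KO array 4 lowest at 5.12. Pex5, the receptor for most matrix enzymes, read 7.37, 7.17, 7.34, 7.51 and 7.41 in KO arrays, against 7.45, 7.55 and 7.39 in WT arrays. Its values overlapped, and the 95% interval of its log2 difference of -0.10 ran from -0.38 to 0.18. Pex7, the receptor for thiolases, Phyh and Agps, had a log2 difference of 0.13 (SE 0.146). The docking proteins Pex13 and Pex14 had differences of 0.02 (SE 0.131) and -0.18 (SE 0.14), and the export proteins Pex6 and Pex26 of -0.12 (SE 0.122) and -0.11 (SE 0.156).

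Among the 6 membrane proteins, 5 were lower and 1 higher (median log2 difference -0.17), and 1 had an unadjusted p under 0.05. The median was -0.105 without KO arrays 1 and 2. Abcd3, the abundant transporter that imports branched and dicarboxylic fatty acids and bile acid precursors, read 10.71, 10.62, 10.67, 10.77 and 11.04 in KO arrays, against 11.18, 11.14 and 11.03 in WT arrays. KO array 5 alone reached the WT range, just above WT array 3. The log2 difference was -0.35 (SE 0.135), or 1.28-fold lower (95% interval -0.65 to -0.06, adjusted p = 0.795 with limma, exact permutation p = 0.0536), and -0.29 without KO arrays 1 and 2.

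Abcd2, a transporter of very long-chain fatty acids, was the least stable member. It read 7.86, 8.19, 5.94, 6.79 and 5.54 in KO arrays, against 6.86, 7.01 and 7.30 in WT arrays. KO arrays 1 and 2 lay above all WT arrays and KO arrays 3, 4 and 5 below all of them, so the mean log2 difference of -0.19 (SE 0.537) averages values from both sides of the WT range. Without KO arrays 1 and 2 it was -0.96. Pxmp4 had a log2 difference of -0.18 (SE 0.148), Abcd4, an ABCD family member now placed at the lysosome for cobalamin transport, one of -0.16 (SE 0.161), Slc25a17, a carrier for CoA and other cofactors, one of -0.07 (SE 0.146), and Pxmp2, a channel protein, one of 0.04 (SE 0.149).

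**Figure D3:**
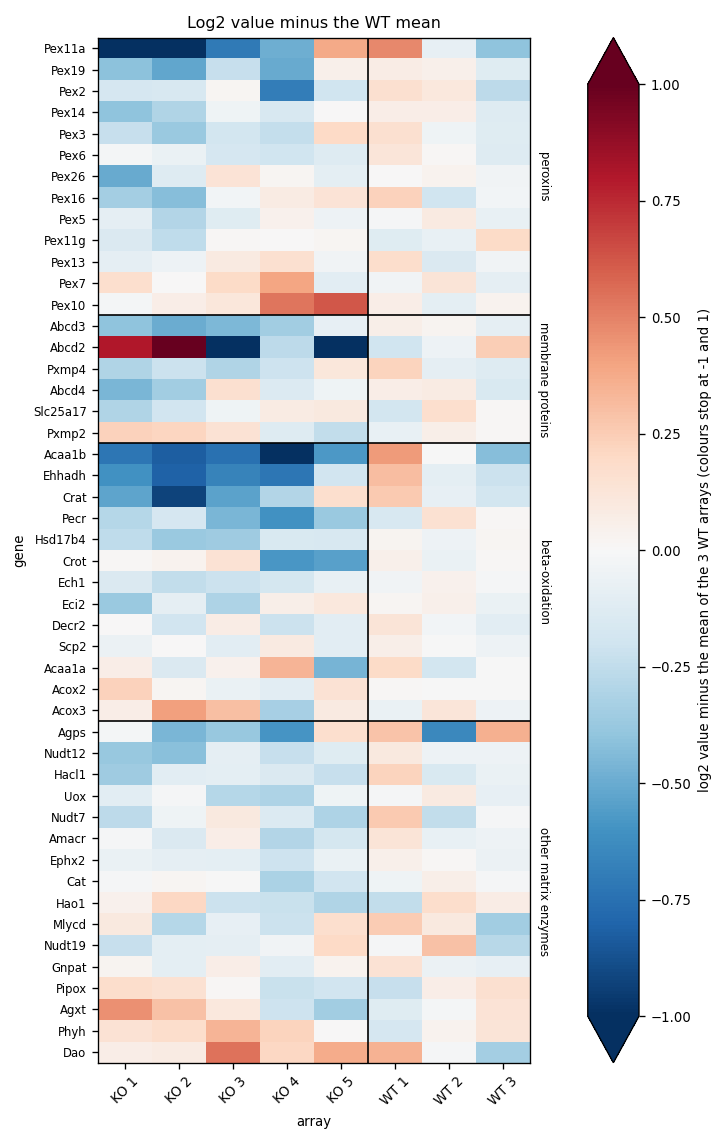
Log2 value minus the mean of the 3 WT arrays (colour) for each peroxisome gene (rows, by role) on each array (columns, KO then WT). Blue is lower than the WT mean and red higher. Acaa1b, Ehhadh and Crat are blue on KO arrays 1 to 4, Pex11a is darkest on KO arrays 1 and 2, and Abcd2 is red on KO arrays 1 and 2 and blue on the other KO arrays.

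Of the 16 other matrix enzymes, 13 were lower and 3 higher (median log2 difference -0.10), with 0 at an unadjusted p under 0.05, and their log2 differences ran from -0.26 to 0.25. The median was -0.058 without WT array 2, -0.060 without KO array 4 and -0.13 without KO arrays 1 and 2. Cat, the catalase that destroys hydrogen peroxide and the usual marker of the organelle, read 12.49, 12.52, 12.50, 12.18 and 12.31 in KO arrays, against 12.46, 12.56 and 12.49 in WT arrays. KO arrays 4 and 5 were the lowest of all 8, and the log2 difference was -0.10 (SE 0.131) with a 95% interval of -0.39 to 0.19. Both bounds lie closer to 0 than the mean difference of Ehhadh or Acaa1b, but the 95% intervals of those 2 genes overlap that of Cat. They ran from -0.99 to -0.21 for Ehhadh and from -1.21 to -0.36 for Acaa1b, and no contrast with Cat was tested.

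Nudt12, a nudix hydrolase of NADH and related nucleotides, had the smallest p of these enzymes and read 8.06, 8.02, 8.35, 8.21 and 8.31 in KO arrays, against 8.54, 8.39 and 8.39 in WT arrays. Its groups did not overlap, with a log2 difference of -0.25 (SE 0.132, adjusted p = 0.841 with limma, exact permutation p = 0.0357). Ephx2, the soluble epoxide hydrolase, did not overlap either, with KO arrays at 11.161 to 11.306 and WT arrays at 11.311 to 11.422, yet its log2 difference was only -0.11 (SE 0.115). The nudix hydrolases of CoA, Nudt7 and Nudt19, had log2 differences of -0.13 and -0.05, and Mlycd, malonyl-CoA decarboxylase, one of -0.06.

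Enzymes of alpha-oxidation, which removes single carbons from branched chains, differed in sign. Hacl1, the lyase, read 10.19, 10.44, 10.44, 10.40 and 10.31 in KO arrays, against 10.77, 10.39 and 10.48 in WT arrays. WT array 1 stood above the rest, and the log2 difference was -0.19 (SE 0.136). Phyh, the phytanoyl-CoA hydroxylase one step before it, had a log2 difference of 0.18 (SE 0.132) and 0.08 (SE 0.128) on a second cluster, and Amacr, the racemase that prepares branched chains for beta-oxidation, one of -0.11 (SE 0.133). The ether lipid enzymes Agps and Gnpat had log2 differences of -0.26 (SE 0.254) and -0.01 (SE 0.123). Agps read 5.54, 5.09, 5.18, 4.96 and 5.72 in KO arrays, against 5.83, 4.91 and 5.91 in WT arrays. WT array 2 was the lowest of all 8, and the difference of Agps was -0.58 without it, -0.11 without WT array 1 and -0.08 without WT array 3.

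The oxidases and glyoxylate enzymes of the matrix had differences of both signs. Uox, urate oxidase, had a log2 difference of -0.15 (SE 0.13), Hao1, glycolate oxidase, one of -0.10 (SE 0.163), Agxt, which detoxifies glyoxylate, one of 0.06 (SE 0.192), and Pipox, an oxidase of pipecolic acid and sarcosine, one of -0.01 (SE 0.153). Agxt was above the WT range on KO arrays 1 and 2, at 9.545 and 9.38, and below it on KO arrays 4 and 5, at 8.88 and 8.74, with WT arrays at 8.97 to 9.23. Dao, D-amino acid oxidase, known in mice mainly from kidney and brain, read 2.44, 2.45, 2.91, 2.57 and 2.74 in KO arrays, against 2.72, 2.36 and 2.03 in WT arrays. With a mean under 5 it was the only dim member, its signal is not shown to exceed background, and its log2 difference was 0.25 (SE 0.18).

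Across arrays, the lowest of a member's 8 values lay in a KO liver for 40 of 48 members and the highest in a KO liver for 18. KO livers make up 5 of the 8 arrays, and over all clusters they held the lowest value in 65.5% and the highest in 64.3%, or 75.0% and 61.6% of those with a mean of at least 5. The members' share of lowest values in KO livers was thus above both of these backgrounds, nearer to that of the brighter clusters. Their share of highest values was below both, with no test of either. WT array 1 held the highest of all 8 values for 21 members, and was the highest WT array for 28. Among KO arrays, array 5 was the highest for 18 members, 7 of them peroxins, and array 4 the lowest for 15. KO array 5 and WT array 1 were both the highest of their group for 12 members, including Pex3, Pex11a, Pex19, Abcd3, Acaa1b, Ehhadh and Crat.

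The sign of a member's difference depended on the arrays or settings used for 18 of the 48 members, all with log2 differences of at most 0.19 in size. These were Pex11g, Pex13, Pex16, Pex26, Abcd2, Slc25a17, Pxmp2, Scp2, Acaa1a, Acox2, Crot, Cat, Hao1, Agxt, Pipox, Gnpat, Nudt19 and Mlycd. Acaa1b, Ehhadh, Pecr and Abcd3 kept their sign under every alternative tried, with log2 differences of -0.997 to -0.57, -0.70 to -0.45, -0.48 to -0.30 and -0.45 to -0.29, and none passed the adjusted threshold under any of them (lowest adjusted p = 0.358, with limma, for Acaa1b).

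Of 40 listed peroxisome genes outside the 48, 30 were measured, with 24 lower and 6 higher. That is 80.0% lower, beside 59.9% of all clusters with a mean of at least 5, on a list chosen with earlier results known. The median log2 difference was -0.11, with a range of -1.50 to 0.48. At an unadjusted p under 0.05 there were 5 lower and 1 higher, beside 3.32% and 2.75% of all clusters. Without KO arrays 1 and 2, 19 had the lower mean in KO, 2 of them at an unadjusted p under 0.05. Acot3, a peroxisomal acyl-CoA thioesterase, read 5.14, 5.65, 5.85, 5.44 and 5.94 in KO arrays, against 7.78, 6.78 and 6.77 in WT arrays, with no overlap (log2 difference -1.50, SE 0.259, adjusted p = 0.376 with limma). Its relative Acot4 had a log2 difference of -0.56 (SE 0.184), the acyltransferase Acnat2 one of -0.49 (SE 0.177) and the matrix protease Lonp2 one of -0.31 (SE 0.125). Mpv17l, an Mpv17-like membrane protein, had the largest positive value of this list at 0.48 (SE 0.149), with KO arrays at 5.55 to 6.00 and WT arrays at 5.07 to 5.45. In 4 genes of the list every KO array lay below every WT array, and in 2, Mpv17l among them, above. Over all clusters these shares were 2.44% and 1.99%.

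Of 26 listed genes for PPARA and its targets outside the peroxisome, 23 were measured, 14 lower and 9 higher (median log2 difference -0.13). That is 60.9% lower, near the 59.9% of all clusters with a mean of at least 5. The 9 higher include Rxra and Ppargc1a beside Ppara itself. At an unadjusted p under 0.05, 8 were lower and 0 higher, beside 3.32% and 2.75% of all clusters. Without KO arrays 1 and 2, 5 were lower at that threshold and the list median was -0.06. Ppara read 8.14, 8.23, 8.51, 8.09 and 7.96 in KO arrays, against 8.26, 8.27 and 7.84 in WT arrays, with overlapping values and a log2 difference of 0.06 (SE 0.164). The targets with the smallest p were lower. Vnn1, a pantetheinase, had a log2 difference of -0.83 (SE 0.189). Fabp1, the liver fatty acid binding protein, had one of -0.63 (SE 0.158), and the fatty acid hydroxylase Cyp4a14 one of -0.44 (SE 0.142). Other targets on the list were higher, among them Cd36 at 0.30 (SE 0.194), Pdk4 at 0.19 (SE 0.405), Angptl4 at 0.15 (SE 0.264) and Cpt1a at 0.04 (SE 0.126).

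The thioesterases Acot1 and Acot2 shared features of Pex11a, with KO array 5 highest among KO arrays. Acot2 read 8.01, 7.43, 8.61, 8.90 and 9.96 in KO arrays, against 10.69, 10.03 and 9.75 in WT arrays, with KO arrays 1 and 2 lowest and WT array 1 highest, for a log2 difference of -1.57 (SE 0.469) with all arrays and -0.999 without KO arrays 1 and 2. For Acot1 these values were -1.20 (SE 0.335) and -0.82.

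Beta-oxidation in mitochondria is a separate pathway with its own enzymes, which takes over chains of ordinary length. Of its 21 listed genes, 19 were measured, 18 lower and 1 higher, with a median log2 difference of -0.18, or -0.23 without KO arrays 1 and 2. That is 94.7% lower, beside 59.9% of all clusters with a mean of at least 5, again on a list chosen with earlier results known. At an unadjusted p under 0.05, 3 were lower (beside 3.32% of all clusters), or 1 without those arrays. Those with the smallest p were Acadm at -0.31 (SE 0.122), Decr1 at -0.32 (SE 0.133), Hadha at -0.32 (SE 0.143), Acadvl at -0.26 (SE 0.133) and Cpt2 at -0.24 (SE 0.132), all enzymes of the fatty acid spiral or of carnitine entry. That median was close to the -0.17 of the peroxisomal beta-oxidation group, while single peroxisomal members reached larger differences, down to -0.79 for Acaa1b against -0.32 for Decr1, the mitochondrial gene with the lowest value. No member of these 3 lists passed the adjusted threshold, and the PPARA and mitochondrial lists share some genes.

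**Figure D4:**
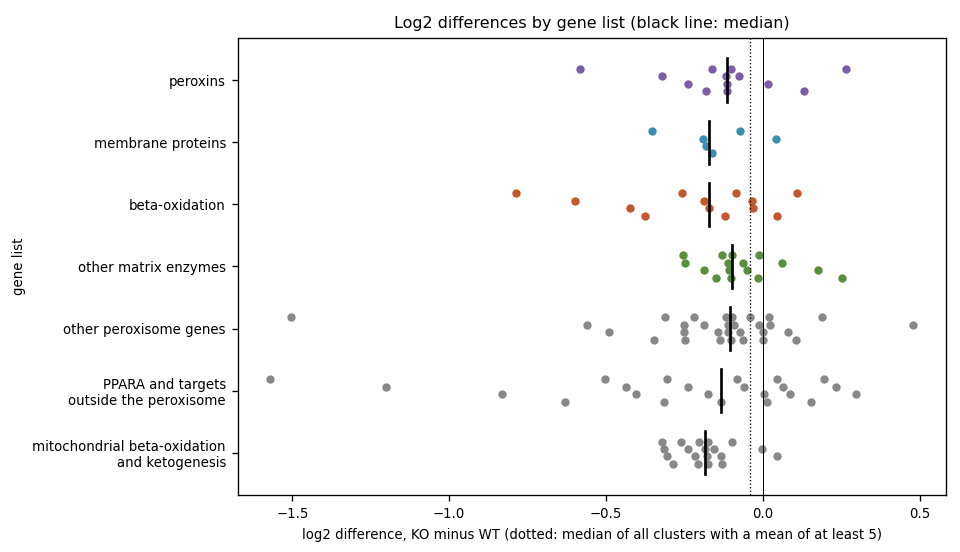
Log2 difference between KO and WT livers (x axis) for each measured gene of the 4 role groups and of 3 further lists (y axis), with the list median as a black line and the median of all clusters with a mean of at least 5 as a dotted line. The list medians lie between -0.18 and -0.10, all below the dotted line at -0.04.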

How the data were processed

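Liver RNA of 5 Abhd15 KO and 3 WT mice was hybridised to Mouse Gene 2.0 ST arrays. The deposited values are log2 expression values per transcript cluster, already processed by the authors. The log2 scale is read from the values' range. RMA and oligo are named in the submitters' processing notes and Expression Console in the design text, and the sources used here do not say which of them made these values. Of 41345 clusters, the platform annotation names 1 gene symbol for 23521, several for 1814 and none for 16010. Array medians were 2.99 to 3.05.

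KO minus WT was fitted on the 23521 clusters with limma 3.58.1 in R 4.3.3 (lmFit and eBayes), with Benjamini-Hochberg adjustment over all of them and a threshold of 0.05. For single genes, a two-sided exact permutation test ran over the 56 splits of the 8 arrays, with a smallest possible p of 0.0179. A cluster with a mean under 5 is called dim. On simulated data with 5 and 3 arrays, the fit called 6.4% of planted log2 changes of 0.5, 61.2% of those of 1 and 94.8% of those of 2.

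Members and lists were chosen with earlier results of these data known. Array values are given for members with an unadjusted p under 0.05, or else the 3 with the smallest p in a role group, and for Cat, Acaa1a and Pex5. Of each further list, up to 5 genes with the smallest p are named, plus Ppara. Cd36, Pdk4, Angptl4, Cpt1a, Rxra and Ppargc1a, all higher in KO, were added after the values were seen, as were the markers Lyve1, Tat and Lrat. Array values of Abcd2, Hsd17b4, Crat and Agps, and array ranges of Ech1, Crot, Ephx2, Agxt, Pex2 and Mpv17l, were added after the values were seen, as were the 3 within-array pairs. Replicate numbers did not pair the samples: deviations of same-numbered KO and WT arrays correlated at -0.048, 0.016 and 0.021. No scan date or slide was available, so no batch was tested. Alternatives covered normalization, filters, weights, the variance model, the clusters tested and the arrays included.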

Additional observations from a re-analysis of the deposited data

Results flagged for a closer look

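In 2 of the 48 peroxisome genes and 1 of 16 further genes, a single KO array lay far from the other 4 by Dixon's test, which chance does in about 1 of 20 groups. Those 16 are the genes with the smallest p of each further list, plus Ppara. Pxmp4, a peroxisomal membrane protein, read 10.148 on KO array 5, with the other KO arrays between 9.734 and 9.824. Acnat2, an acyltransferase, read 7.602 on KO array 5, with the other KO arrays between 6.821 and 7.027. Ephx2, the soluble epoxide hydrolase, read 11.161 on KO array 4, with the other KO arrays between 11.271 and 11.306.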

How the results depend on the processing

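No member passed the adjusted threshold under any alternative. Among all clusters, 0 passed with the settings of the report, 3 when every cluster was tested, 3 with trend and robust settings, 1 with a mean of at least 5 and 1 with the replicate block, which moved no member past it. Members lower at an unadjusted p under 0.05 numbered 4, against 7 with a mean of at least 5, 8 with trend and robust settings, and 3 to 7 when 1 array was left out (7 without KO array 5). Members higher numbered 0, against 1 without KO arrays 1 and 2, and 0 to 1 when 1 array was left out (1 without WT array 1). The median log2 differences of the 4 role groups kept their sign under every alternative but moved in size. The peroxin median of -0.11 was -0.073 with centring and -0.044 without KO arrays 1 and 2, and the membrane protein median of -0.17 was -0.105 without those arrays. That of the other matrix enzymes, -0.10, was -0.057 with centring, -0.050 with the replicate block, -0.060 without KO array 4 and -0.058 without WT array 2.

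Some small log2 differences changed sign, and the cause was not tested. Centring on brighter clusters gave 0.006 for Scp2, 0.0097 for Acaa1a, 0.027 for Gnpat and 0.028 for Pipox, and quantile normalization gave 0.0015 for Nudt19 and 0.010 for Gnpat. The replicate block gave -0.015 for Pex13, 0.27 for Abcd2, 0.062 for Crot, 0.0033 for Cat, 0.013 for Hao1 and 0.11 for Pipox. Without KO arrays 1 and 2 the values were 0.021 for Pex26, 0.065 for Pex16, 0.009 for Pex11g, 0.044 for Slc25a17, -0.079 for Pxmp2, -0.0077 for Acox2, 0.024 for Nudt19 and -0.15 for Agxt. Leaving out 1 array at a time gave ranges across 0 for Pex16 (-0.21 to 0.0015), Pex11g (-0.14 to 0.022), Pex13 (-0.054 to 0.10), Slc25a17 (-0.16 to 0.011), Abcd2 (-0.52 to 0.14), Pxmp2 (-0.0065 to 0.11), Acox2 (-0.00083 to 0.083), Acaa1a (-0.125 to 0.075), Mlycd (-0.24 to 0.060), Nudt19 (-0.19 to 0.10), Agxt (-0.039 to 0.16), Gnpat (-0.055 to 0.056), Pipox (-0.13 to 0.067) and Ppara (-0.078 to 0.14).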
